A study of Mus musculus with 8 samples.

Results

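The genes described are 10 that act in the DNA and histone methylation pathways by which mouse cells keep transposable elements silent. They were taken by symbol from the 55487 genes of the deposited tables, and all 10 were found: Setdb1, Trim28, Dnmt1, Dnmt3a, Dnmt3b, Uhrf1, Suv39h1, Suv39h2, Hells and Kdm1a. RNA was sequenced from Lewis lung carcinoma (LLC) cells, a mouse lung carcinoma line grown in culture, in 4 wild-type and 4 Ago2 knock-out (ΔAgo2) libraries. Ago2 encodes the Argonaute protein that is guided to target RNAs by small RNAs. ΔAgo2 cells were made with a lentivirus carrying Cas9 and a guide, were selected with puromycin and were sorted as single cells into clones. The clone behind these libraries, and whether the wild-type cells received a control vector, are not given in the sources used here, so effects of a clone and of the knock-out cannot be told apart. All libraries carry the same batch label and are called biological replicates, without saying whether the cultures were separate, so p-values measure the spread between these libraries.

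DNA methylation and trimethylation of histone H3 at lysine 9 (H3K9me3) keep repeats closed. The repressor Trim28, brought to DNA by KRAB zinc finger proteins, recruits Setdb1, an H3K9 methyltransferase, to many endogenous retroviruses. Suv39h1 and Suv39h2 place the same mark at heterochromatin rich in repeats. Dnmt3a and Dnmt3b add methyl groups to CpG dinucleotides, and Dnmt1, brought by Uhrf1 to half-methylated sites behind the replication fork, copies the pattern to the new strand. Hells is a chromatin remodeler needed for methylation of repeats, and Kdm1a (LSD1) removes methyl groups from H3 at lysine 4.

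The libraries held 39628101 to 68530912 counts, and each of the 10 genes had between 95 and 42644 reads in every library. Wild-type replicate 4 stood apart: its median Spearman correlation with its own group was 0.864, against 0.948 to 0.961 for the other wild-type and 0.985 to 0.986 for the ΔAgo2 libraries. The edgeR fit is therefore also given without it for the 10 genes. The Ago2 transcript ran from 119 to 520 CPM (counts scaled to the library total and TMM factor) in wild-type and from 293 to 408 CPM in ΔAgo2 libraries, so its transcript level checks no label, and genotypes are those the submitters gave. Of the carcinoma markers, Krt8 was at 38.2 to 654 CPM, with the highest value in wild-type replicate 4. In contrast, Epcam reached 1 count and Cdh1 9 counts in any library. Vim, a mesenchymal marker, was at 3070 to 6080 CPM. Nkx2-1, a defining lung epithelial factor, had 0 counts in every library, and no immune marker passed 8 counts. Fewer cells with a transcript and less of it per cell cannot be told apart in such bulk RNA.

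The start regions of the genes are shown because several of the 10 are tied to DNA replication. A further reason is that the DNA methyltransferases among them act on CpG sites, though methylation of these starts was not measured. RefSeq start windows of 300 bases, from 250 before to 50 after each start, were found for 10 of 10 genes (16 windows, GRCm38.p6). They held a median of 29.5 CpG dinucleotides (2 to 47), against 7 over all 32851 windows. The first 175 bases of the Hells window, which end where the GENCODE gene begins and before the RefSeq start (chr19:38930740-38930914, plus strand, 14 CpG), and the 250 bases before the Setdb1 start (chr3:95357203-95357452, minus strand, 13 CpG) are given 5′ to 3′ with each CpG in capitals.
Hells: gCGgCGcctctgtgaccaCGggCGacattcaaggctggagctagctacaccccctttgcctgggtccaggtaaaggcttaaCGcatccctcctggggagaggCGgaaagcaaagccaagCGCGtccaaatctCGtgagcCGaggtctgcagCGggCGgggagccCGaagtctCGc
Setdb1: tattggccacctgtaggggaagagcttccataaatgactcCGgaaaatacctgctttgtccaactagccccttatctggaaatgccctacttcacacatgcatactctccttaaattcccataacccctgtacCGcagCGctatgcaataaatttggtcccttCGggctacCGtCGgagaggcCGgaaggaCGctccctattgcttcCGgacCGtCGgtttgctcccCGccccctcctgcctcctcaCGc

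E2F factors, which switch on genes of DNA replication, bind sites of the form TTCCCGC or TTTGGCGC, and these letters were searched on both strands. One or the other was in 5 of the 10 genes and in 5 of the 16 windows, against 5.06% of all windows. Among the 3837 windows with at least as many CpG as the median window of the 10 genes, the share was 14.3%. The matching windows of Dnmt1 (33 CpG), Hells (34 CpG) and Suv39h2 (33 CpG) fall in that class. Those of Uhrf1 (12 CpG) and Trim28 (23 CpG) held fewer CpG and fall outside it. The 5 of 16 windows and the 14.3% are therefore taken over unlike windows. TTCCCGC alone was in 4.6% and TTTGGCGC in 0.514% of all windows, and a window with both was counted once. The matches are printed in the direction of the gene with the motif in capitals (GRCm38.p6), and that of Trim28 reads on the opposite strand. A match in letters is a description and not a bound site.
Dnmt1 (chr9:20952574-20952601, minus): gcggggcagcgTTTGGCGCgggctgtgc
Uhrf1 (chr17:56303278-56303306, plus): tgctttctcgcTTCCCGCcacagcgccag
Hells (chr19:38930918-38930946, plus): accaccgggttTTCCCGCgaaagagaagc
Suv39h2 (chr2:3475114-3475142, minus): ggccccgccccTTCCCGCccccaccgtgc
Trim28 (chr7:13023963-13023991, plus): ctccacgttcgGCGGGAActtcctggcaa

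Levels between genes were compared as TPM (reads per length of gene, set to a common library sum). Trim28 was the most abundant of the 10 and Dnmt3b the least in 8 of 8 libraries. In wild-type cells the order of mean TPM was Trim28, Uhrf1, Dnmt1, Kdm1a, Hells, Setdb1, Suv39h1, Suv39h2, Dnmt3a and Dnmt3b. Only Dnmt1 and Kdm1a, among neighbours in that order, had ranges over the 4 libraries that did not overlap. In ΔAgo2 cells Dnmt1 passed Uhrf1 and Suv39h1 passed Setdb1 in the order of means, but in both pairs the ranges overlapped. There, Trim28 was clear of Dnmt1, Uhrf1 of Kdm1a, Kdm1a of Hells, Setdb1 of Suv39h2, and Dnmt3a of Dnmt3b. The machinery was thus led by Trim28, Dnmt1 and Uhrf1. They made up 67.2% to 75.6% of the summed TPM of the 10 genes in wild-type replicates 1 to 3. Their share was 90.7% in wild-type replicate 4 and 71.8% to 74.9% in ΔAgo2 libraries.

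**Figure D1:**
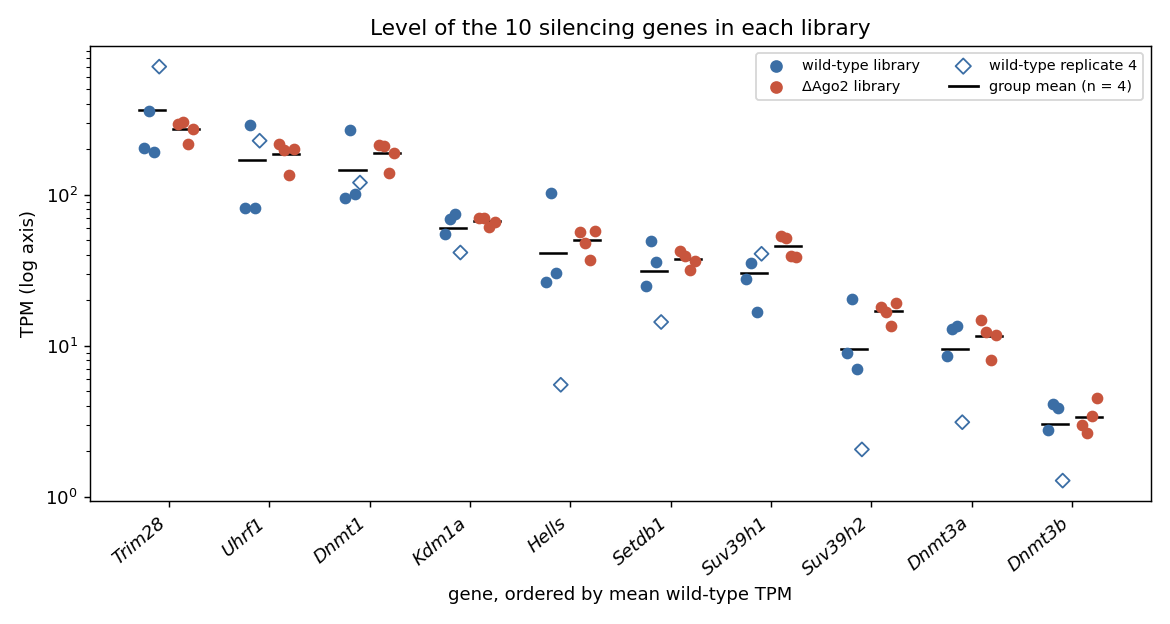
TPM (log axis) of the 10 genes in each library, wild-type in blue and ΔAgo2 in red, with wild-type replicate 4 as an open diamond and the group mean (n = 4) as a line. The ranges of the genotypes overlap for every gene, and the ΔAgo2 libraries lie closer together than the wild-type libraries.

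None of the 10 genes passed an adjusted p of 0.05 between ΔAgo2 and wild-type cells (edgeR's quasi-likelihood test, two-sided, Benjamini-Hochberg adjustment over 14228 genes left by a filter on low counts), against 0.295% of all tested genes (0.0773% higher and 0.218% lower in ΔAgo2). At an unadjusted p under 0.05 the count was also 0, against 7.34% of tested genes. DESeq2, run without that filter on low counts, called 0 of the 10, against 2.23% of the 17926 genes it gave an adjusted p. It found 0 at an unadjusted p under 0.05, against 6.48% of the 27620 genes it gave a p. With sample weights in limma-voom, which give a library that stands apart less say, 0 were called, against 1.81%, and 4 (Dnmt1, Uhrf1, Suv39h1 and Suv39h2) had an unadjusted p under 0.05, against 16.6%. edgeR without wild-type replicate 4 called 0, against 0.777%. In CPM, the 4 libraries of one genotype lay clear of the 4 of the other for 0 of the 10, against 6.07% of tested genes. The log2 fold change (ΔAgo2 minus wild-type) was above 0 for 7 of the 10, against 41.2% of tested genes, with a median of 0.16 against -0.11 over all genes. Without wild-type replicate 4 it was above 0 for 6, against 45.8%, with a median of 0.05 against -0.04. Adjusted p-values below come from the same edgeR fit, and intervals are 95% intervals of the fold.

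Of the genes that copy methylation at replication, Dnmt1 (chr9:20907209-20959888, minus strand, 39 exons) was at 95.6, 270, 102 and 121 TPM in wild-type replicates 1 to 4. In ΔAgo2 replicates 1 to 4 it was at 213, 211, 140 and 189 TPM. In TPM, wild-type replicate 2 was above all ΔAgo2 libraries and the other 3 wild-type libraries below all of them, whereas in CPM wild-type replicate 4 (400.8) lay within the ΔAgo2 range (306.3 to 429.4). Dnmt1 had a log2 fold change of 0.19 (SE 0.33, adjusted p = 0.90), with an interval of the fold from 0.689 to 1.88. Its value was 0.28 without wild-type replicate 4, 0.43 without replicate 2, 0.04 without replicate 1 and 0.03 without replicate 3 of that group.

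Uhrf1 (chr17:56303321-56323486, plus strand, 17 exons) had the same shape but for replicate 4. It was at 81.8, 288, 81.3 and 228 TPM in wild-type and at 216, 199, 134 and 200 TPM in ΔAgo2 cells. Wild-type replicates 1 and 3 lay below, and 2 and 4 above, all ΔAgo2 libraries. Its log2 fold change was -0.12 (SE 0.46, adjusted p = 0.958), and 0.33 without wild-type replicate 4.

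Hells (chr19:38930915-38971051, plus strand, 22 exons) had the widest spread of the 10 in wild-type cells, 10.6-fold between its highest and lowest CPM. It was at 26.3, 104, 30.4 and 5.52 TPM in wild-type and at 57.1, 48, 36.8 and 57.9 TPM in ΔAgo2 cells. Again wild-type replicate 2 was the highest of all 8 and the other 3 were below every ΔAgo2 library. Its log2 fold change was 0.26 (SE 0.56, adjusted p = 0.92), with an interval of 0.507 to 2.83-fold. Single libraries decided that value, which was -0.07 without wild-type replicate 4 and 1.06 without wild-type replicate 2. The TPM ratio of Dnmt1 to Uhrf1 was between 0.938 and 1.25 in wild-type replicates 1 to 3, 0.528 in replicate 4, and 0.947 to 1.06 in ΔAgo2 cells.

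The S phase genes, a list of 20 replication and cell cycle genes such as the Mcm helicase subunits, had a higher summed CPM in wild-type replicates 2 and 4 than in 1 and 3. The CPM of Dnmt1, Uhrf1, Trim28 and Suv39h1 had that pattern too, although Suv39h1 was at 47.82 CPM in replicate 2 and 47.34 CPM in replicate 1. The others of the 10 did not have it, and Hells was highest in replicate 2 and lowest in replicate 4. Of the 20 S phase genes, 5 had their lowest wild-type CPM in replicate 4, against 40.2% of tested genes. The summed level of the list was 2283, 4791, 1938 and 4762 CPM in wild-type replicates 1 to 4 and 3755, 3769, 3030 and 3717 CPM in ΔAgo2 replicates 1 to 4. Among wild-type replicates 1 to 3, replicate 2 was the highest for 20 of the 20 and for 7 of the 10 silencing genes, against 35.0% of tested genes. Dnmt3a, Dnmt3b and Kdm1a were instead highest in replicate 3. In ΔAgo2 cells, replicate 3 had the lowest S phase sum and the lowest CPM for 8 of the 10, against 30.2% of tested genes. None of the 20 S phase genes passed the test between genotypes, against 0.295% of all tested genes. Their median log2 fold change was 0.10, against -0.11 over all tested genes, and 0.37 without wild-type replicate 4, against -0.04. The part of the S phase genes in the levels of the silencing genes was not tested.

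**Figure D2:**
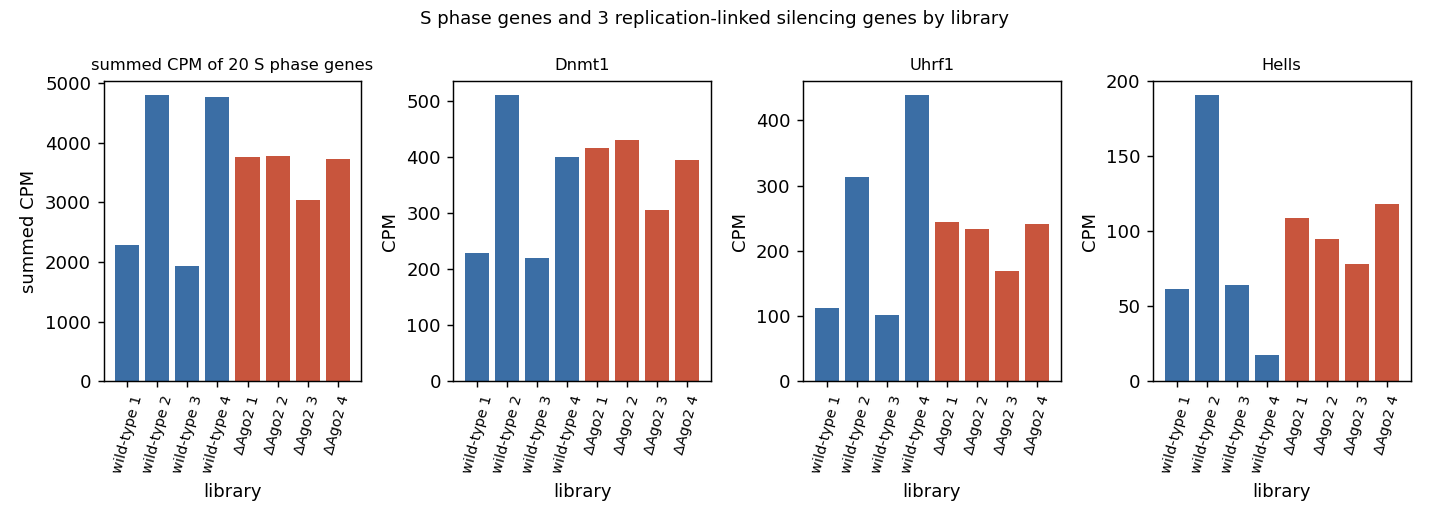
Summed CPM of the 20 S phase genes and CPM of Dnmt1, Uhrf1 and Hells in each library (bars from 0, wild-type in blue, ΔAgo2 in red). Wild-type replicate 2 exceeds replicates 1 and 3 in all 4 panels, and in wild-type replicate 4 Hells is at 17.9 CPM while the S phase sum is at 4762 CPM.

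The de novo enzymes had the lowest mean TPM of the set, although Suv39h2 overlapped Dnmt3a in both genotypes. Dnmt3a (chr12:3806007-3914443, plus strand, 23 exons) was at 8.6, 12.8, 13.5 and 3.12 TPM in wild-type and at 14.7, 12.3, 8.04 and 11.7 TPM in ΔAgo2 cells. Dnmt3b (chr2:153649450-153687730, plus strand, 24 exons) was at 2.79, 4.13, 3.89 and 1.28 TPM in wild-type and at 2.99, 2.63, 3.44 and 4.49 TPM in ΔAgo2 cells. For both, wild-type replicate 4 was the lowest library, and replicates 1 to 3 lay within the ΔAgo2 range in TPM. The log2 fold changes were 0.19 for Dnmt3a (SE 0.33, adjusted p = 0.904) and 0.05 for Dnmt3b (SE 0.36, adjusted p = 0.98). Both turned without wild-type replicate 4, to -0.03 and -0.11, and Dnmt3b also turned without ΔAgo2 replicate 4, to -0.12. Dnmt3a exceeded Dnmt3b in 8 of 8 libraries, by 2.44 to 3.46 times in wild-type and by 2.34 to 4.93 times in ΔAgo2 cells.

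Of the Trim28 and Setdb1 pair, Trim28 (chr7:12999114-13031035, plus strand, 17 exons) was at 204, 358, 192 and 706 TPM in wild-type and at 293, 305.9, 219 and 271 TPM in ΔAgo2 cells. Replicate 4 of wild-type held by far the highest level. Trim28 had a log2 fold change of -0.81 (SE 0.52, adjusted p = 0.74) with that library and 0.10 (SE 0.20, adjusted p = 0.876) without it, so its direction rested on 1 library. Without it the interval of the fold ran from 0.779 to 1.47. Setdb1 (chr3:95323525-95357202, minus strand, 21 exons) was at 25, 49.5, 35.9 and 14.4 TPM in wild-type and at 42.1, 39.3, 31.6 and 36.2 TPM in ΔAgo2 cells. The ΔAgo2 libraries of Setdb1 fell inside the wild-type range, with a log2 fold change of 0.14 (SE 0.27, adjusted p = 0.909). It was 0.0025 without wild-type replicate 4 and 0.30 without wild-type replicate 2. The TPM ratio of Trim28 to Setdb1 was 5.34 to 8.17 in wild-type replicates 1 to 3, 49.1 in replicate 4 and 6.92 to 7.78 in ΔAgo2 cells.

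Over all 8 libraries the Suv39h genes had the highest log2 fold changes of the 10 in the edgeR fit, an order that changed with single libraries left out. Suv39h1 (chrX:8061171-8074760, minus strand, 6 exons) was at 27.7, 35.5, 16.7 and 40.7 TPM in wild-type and at 53.5, 51.7, 39.4 and 38.7 TPM in ΔAgo2 cells. Wild-type replicates 1 to 3 lay below all ΔAgo2 libraries and replicate 4 did not: it was within the ΔAgo2 range in TPM and, at 96.6 against 57.8 to 75 CPM, above it in CPM. For Suv39h1 the log2 fold change was 0.31 (SE 0.37, adjusted p = 0.845) over all libraries and 0.75 (SE 0.24, adjusted p = 0.236 from edgeR) without wild-type replicate 4. It was 0.08 without wild-type replicate 3 and 0.23 without replicate 2. In the fit without replicate 4 Suv39h1 was the 1 gene of the 10 with an unadjusted p under 0.05, against 12.6% of tested genes, and the 1 without overlap, against 12.1%. Its interval there ran from 1.16 to 2.42-fold.

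Suv39h2 (chr2:3455815-3475031, minus strand, 6 exons) was at 8.9, 20.3, 7.04 and 2.06 TPM in wild-type and at 18.2, 16.8, 13.6 and 19.12 TPM in ΔAgo2 cells. In TPM, wild-type replicate 2 was the highest of all 8, whereas in CPM ΔAgo2 replicate 4 (23.9) was above it (22.8). The other 3 wild-type libraries were below every ΔAgo2 library on both scales. The log2 fold change of Suv39h2 was 0.77 (SE 0.45, adjusted p = 0.738), with an interval of 0.853 to 3.42-fold, and it was 0.49 without wild-type replicate 4 and 1.26 without replicate 2. Suv39h1 exceeded Suv39h2 in 8 of 8 libraries, by 2.03 to 3.07 times in ΔAgo2 cells and by 1.75 to 19.8 times in wild-type cells, the upper value in replicate 4. Exons of Suv39h2 share 357 bases (8.1%) with Dclre1c on the opposite strand, whose mean was 12.1 CPM (wild-type) and 10.03 CPM (ΔAgo2). Exons of Suv39h1 share 767 bases (14.6%) with the antisense gene Gm14820, at 0.0656 and 0.0390 CPM. The kit kept strand, but the strand setting of the counting was not given in the sources used here.

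Kdm1a (chr4:136550540-136602723, minus strand, 20 exons) was the steadiest of the 10. It was at 54.9, 69.5, 75.1 and 41.5 TPM in wild-type and at 70.8, 69.7, 61.1 and 66 TPM in ΔAgo2 cells. In CPM the libraries spanned 1.23-fold in wild-type and 1.06-fold in ΔAgo2 cells. The log2 fold change was -0.03 (SE 0.22, adjusted p = 0.983), and without wild-type replicate 4 the interval of the fold was 0.787 to 1.22.

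**Figure D3:**
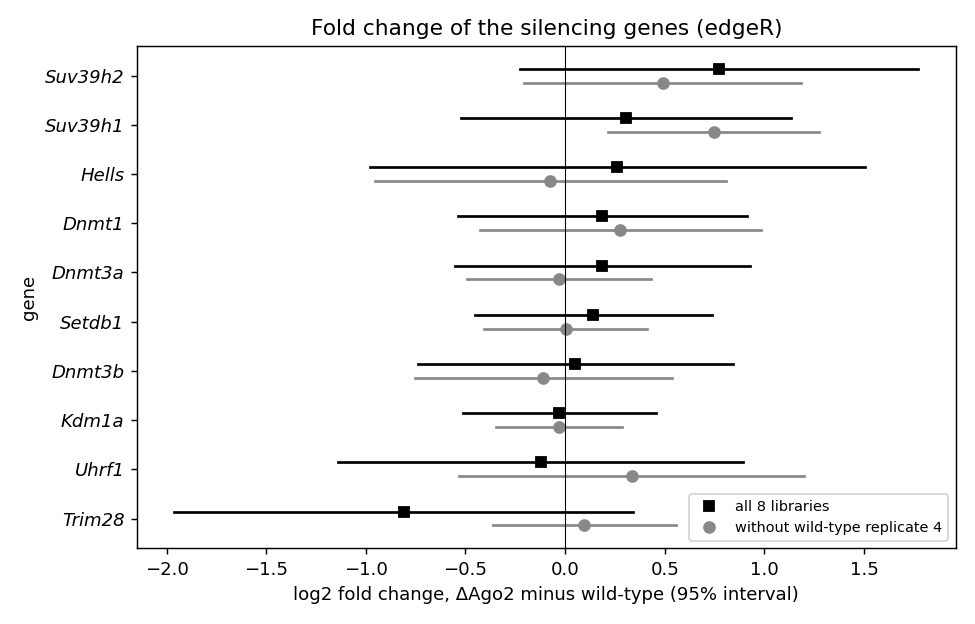
Log2 fold change of each gene with its 95% interval from edgeR, over all 8 libraries (black squares) and without wild-type replicate 4 (grey circles). Every interval from all libraries spans 0, and without that library only the interval of Suv39h1 does not.

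Wild-type libraries were more spread than ΔAgo2 libraries. The SD of log2 CPM was larger in wild-type than in ΔAgo2 cells for 10 of the 10, against 93.3% of tested genes, and for 8 of the 10 without wild-type replicate 4, against 78.8%. Most genes thus shared this spread. In wild-type replicate 4 the departure from replicates 1 to 3 followed GC content over all genes, with a Spearman correlation of 0.722 across tested genes, which are not independent replicates. Among the silencing genes, Trim28, with the highest GC content (59.6%), was 2.19 log2 units above the mean of replicates 1 to 3, and Hells, with the lowest (37.7%), was 2.34 below (-2.34). Suv39h2 (43.0%) was at -1.74 and Uhrf1 (53.7%) at 1.52. Dnmt3a (51.9%) and Dnmt3b (53.1%), at -1.23 and -0.82, were lower than most genes of similar GC content, and Suv39h1 (50.0%), at 1.32, was higher. Trim28 and Uhrf1 also lay above the middle 50% of genes in their bins of GC content, which ended at 1.866 and 1.453. Wild-type replicate 4 also had 0.540% mitochondrial reads, against 2.39% to 4.51% in the other 7.

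**Figure D4:**
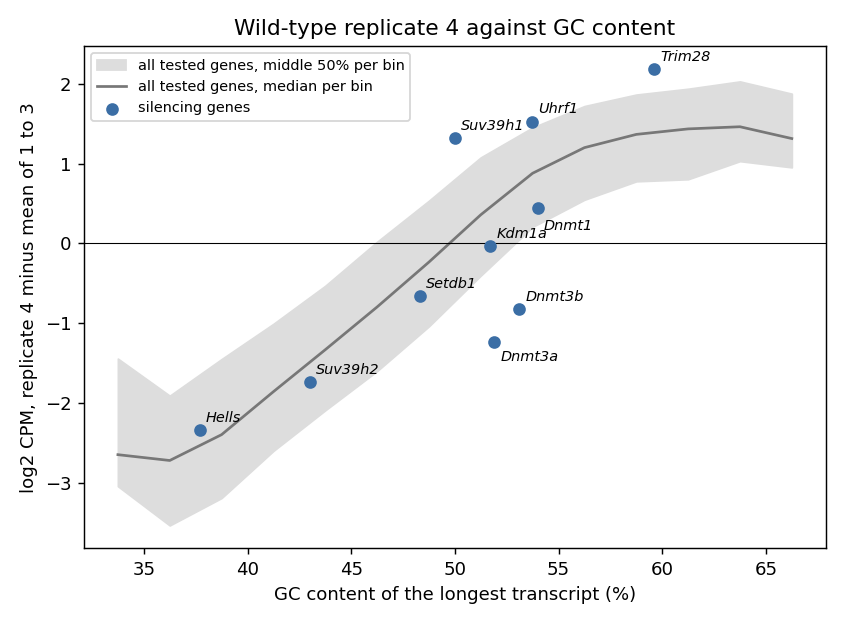
Log2 CPM of wild-type replicate 4 minus the mean of replicates 1 to 3 against the GC content of the longest transcript. Points are the 10 silencing genes, and the grey line and band are the median and middle 50% of all tested genes in bins of GC content. Trim28 at 2.19 and Hells at -2.34 lie at the ends of the GC range of the 10.

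Around the 10 genes, 86 tested genes in 9 lists gave 0 with an adjusted p under 0.05 by edgeR, against 0.295% of all tested genes, and 3 with an unadjusted p under 0.05, against 7.34%. The methyl-CpG reader Zbtb4, a zinc finger repressor that binds methylated DNA, was the 1 gene of the 86 without overlap, against 6.07% of tested genes. It ran from 38.7 to 83.3 CPM in wild-type and from 95.5 to 120 CPM in ΔAgo2 cells, with a log2 fold change of 0.91 (SE 0.29, adjusted p = 0.428 from edgeR), and 0.94 (adjusted p = 0.172) without wild-type replicate 4. Mecom, whose product is a zinc finger factor of the PRDM family of histone methyltransferases, averaged 19.2 ± 10.1 CPM across wild-type and 7.43 ± 1.56 CPM across ΔAgo2 libraries (SD, n = 4 each). Mecom had a log2 fold change of -1.37 (SE 0.43, adjusted p = 0.411 from edgeR), and passed without wild-type replicate 4, at -1.63 (adjusted p = 0.035 from edgeR), the 1 call among the listed genes in that fit, against 0.777% of tested genes. Dnmt3l, the catalytically inactive partner of the de novo enzymes, averaged 1.42 ± 0.814 CPM across wild-type and 0.642 ± 0.127 CPM across ΔAgo2 libraries (SD, n = 4 each), with a log2 fold change of -1.13 (adjusted p = 0.665 from edgeR), and -0.73 without wild-type replicate 4.

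By list, 0 of the 9 partners of DNA methylation passed, with the largest rise in Pcna, the replication clamp (log2 fold change 0.56). Their median was 0.18, and -0.03 without wild-type replicate 4, against -0.11 and -0.04 over all tested genes. Of 7 genes of DNA demethylation 0 passed, and Tet3, which oxidizes methylcytosine, was at 0.70 and Gadd45b at -1.44. Among 7 other H3K9 methyltransferases and partners, Ehmt1 (GLP) was at 0.31. HP1 proteins bind H3K9me3 and the HUSH complex spreads it. In a list of HP1, HUSH and related silencing factors 0 of 9 passed, with Cbx5 (HP1 alpha) at 0.54 and Resf1 at -0.36. The 11 chaperones and remodelers ran from -0.34 in Daxx, a histone H3.3 chaperone, to 0.60 in Smarcad1, and 0 passed. In the complex of Kdm1a and the H3K9 demethylases, 0 of 15 passed, with Rcor2 at -0.62 and Kdm3a at 0.49. The S phase list ran from -0.94 in Ccne1 to 0.57 in Gins1. Single libraries moved many of these values. Without wild-type replicate 4, Daxx was at -0.03, Smarcad1 at 0.33, Rcor2 at -0.15, Kdm3a at 0.27, Ccne1 at -0.38, Tet3 at 0.46, Cbx5 at 0.25, Ehmt1 at 0.13 and Resf1 at -0.74. Without wild-type replicate 3, Gadd45b was at -0.48, Pcna at 0.32, Gins1 at 0.36 and Resf1 at 0.18. Without wild-type replicate 2, Pcna was at 0.95, Cbx5 at 0.94, Smarcad1 at 1.00 and Gins1 at 0.99.

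Germline genes whose promoters are kept off by DNA methylation in somatic cells were nearly silent in both genotypes. Of 22 such genes, 17 had at most 3 counts in every library, and 6 of these had 0 counts in all 8, which allows up to 3 counts per library, or 0.0438 to 0.0757 CPM before scaling. Brdt alone passed the filter on low counts, with 3.01 ± 0.724 CPM across wild-type and 3.15 ± 0.148 CPM across ΔAgo2 libraries (SD, n = 4 each; log2 fold change 0.06, adjusted p = 0.973 from edgeR). Of the others, Piwil2 had the highest count, 49 in wild-type replicate 3. Dazl and Sycp3, which are classical methylation-silenced germline genes, had at most 2 and 3 counts in any library.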

How the data were processed

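RNA from wild-type and ΔAgo2 LLC cells was made into stranded mRNA libraries and sequenced in paired-end mode at 100 bases. The authors aligned reads to ribosomal sequences and then to mm10 (the processing notes name STAR), counted them on genes with featureCounts and deposited whole-number counts without normalization. The authors also deposited TPM, scaled to gene length and library total. The annotation release and strand setting are not given in the sources used here.

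Counts were filtered with filterByExpr, which left 14228 genes, scaled with TMM and tested with edgeR 4.0.16 (R 4.3.3) by its quasi-likelihood test, with genotype as the only factor and Benjamini-Hochberg adjustment. Each SE was obtained as the fold change (log2) over √F. CPM uses TMM-scaled totals. SDs of log2 CPM used a prior count of 2. Positions, exons and GC content came from GENCODE M21 (GRCm38), in which 93 identifiers had no match, and start windows from RefSeq. DESeq2 1.42.0 and limma 3.58.1 served for alternatives, as did other scalings, filters, a GC offset, the replicate number as a block and leaving out each library. The method was tested on simulated counts, drawn with the same spread in both genotypes and no library that stands apart. That test does not cover these traits of the data.

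The 10 genes and all lists were chosen with earlier results of these data known. Named genes are the 10, then in each list those past the test or without overlap, otherwise the largest rise and fall. Tumor libraries and counts of transposable elements were not analysed here.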

Additional observations from a re-analysis of the deposited data

Results flagged for a closer look

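In 68 groups of 4 libraries, 4 values had a library whose gap to its nearest neighbour took more of the range of the group than Dixon's 95% critical value, and chance gives about 1 in 20. Uhrf1 in ΔAgo2 cells was lowest in replicate 3, with a gap of 0.887 of the range of log2 CPM. Daxx in wild-type cells was highest in replicate 4, with a gap of 0.875. The TPM ratio of Dnmt1 to Hells in wild-type cells was highest in replicate 4 (21.8, against 2.61 to 3.64 in the other 3), with a gap of 0.844. The TPM ratio of Suv39h1 to Suv39h2 in ΔAgo2 cells was lowest in replicate 4 (2.03, against 2.89 to 3.07), with a gap of 0.857.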

How the results depend on the processing

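No alternative called any of the 10 genes: their smallest adjusted p was 0.129 (Suv39h1, limma-voom with sample weights). Over 20 alternatives, 175 of 200 fold changes kept their direction and 25 did not. Setdb1, Dnmt1, Suv39h1 and Suv39h2 kept it under every one. The genes called among all those tested, 42 by edgeR, were 399 by DESeq2, 257 by limma-voom with sample weights, 143 with no filter, 6 at 1 CPM or more in 4 libraries, 15 by limma on log2(TPM + 1), 72 with a GC offset, and 1 to 113 with each library left out (1 without ΔAgo2 replicate 1, 7 without each other ΔAgo2 replicate, 12, 78 and 113 without wild-type replicate 1, 2 and 4). The median log2 fold change of all genes moved from -0.11 to 0.15 with log2(TPM + 1) and 0.22 with log2(TPM + 0.1). Of the pathway genes, Mecom was the 1 called with sample weights, and leaving out libraries gave 0 to 1.

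With sample weights the log2 fold change was 0.13 for Trim28, -0.23 for Dnmt3b, 0.72 for Uhrf1, 0.025 for Kdm1a and -0.044 for Brdt. By limma-voom without them it was 0.15 for Uhrf1 and 0.23 for Resf1. Scaled to library totals alone it was 0.030 for Uhrf1 and 0.075 for Kdm1a, and with no filter it was 0.0023 for Kdm1a. On log2(TPM + 1) and log2(TPM + 0.1) it was 0.35 and 0.35 for Uhrf1, 0.18 and 0.19 for Kdm1a, and 0.35 and 0.47 for Resf1. With the GC offset it was 0.13 for Uhrf1, 0.013 for Kdm1a and -0.17 for Brdt. With a library left out it ran from -1.06 to 0.10 for Trim28, -0.033 to 0.38 for Dnmt3a, -0.12 to 0.17 for Dnmt3b, -0.37 to 0.33 for Uhrf1, -0.074 to 1.06 for Hells, -0.075 to 0.049 for Kdm1a, -0.74 to 0.18 for Resf1 and -0.071 to 0.20 for Brdt. The cause of these moves was not tested.

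Same-numbered libraries correlated at -0.138 to 0.384 in their deviations. With 4 libraries in each group, such correlations cannot decide whether the numbers pair the samples. A block for the replicate number gave 18 called genes, and 71 with the block and the GC offset. The log2 fold change with the block was 0.14 for Uhrf1 and 0.10 for Resf1, and with the block and the GC offset it was 0.29 for Uhrf1, 0.036 for Kdm1a and -0.16 for Brdt.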

Other observations

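The pluripotency genes Pou5f1, Nanog and Zfp42, kept off by DNA methylation in many somatic cells, had 2, 3 and 4 counts in ΔAgo2 replicate 2 and 0 counts in each of the other 7 libraries. They are a list of 3, singled out after their values were seen.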
